A study of Mus musculus with 8 samples.

Results

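Divergent promoter pairs are places where 2 protein-coding genes start close together on opposite strands and are transcribed away from each other. The GENCODE M21 annotation of the mouse genome held 755 such pairs, with gene starts up to 1000 bp apart, among 21951 protein-coding genes. They comprised 1489 genes, or 6.78% of the total. Each pair was treated as a single region that ran from 500 bp beyond one start to 500 bp beyond the other, and it counted as bound when a peak covered at least 20 bp of it. The 20450 protein-coding genes outside these pairs served for comparison, each with a region of 500 bp to either side of its start. Choosing the pairs used the annotation alone and no binding value.

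Binding was measured by ChIP-seq, in which an antibody pulls down a protein with the DNA fixed to it, and sequenced fragments that pile up at a place form a peak. The cells were E14Tg2a, a mouse embryonic stem cell line, at passages 37 to 40. Pluripotent ESCs grew with leukemia inhibitory factor (LIF), which holds them in that state, and neuronal cells (NCs) were obtained in monolayers without LIF by 48 h of 1 µM retinoic acid (RA). Antibodies to FGFR1, RXR and Nur77 were used in both states, and an antibody to the histone variant H3.3 in RA alone. FGFR1 is a fibroblast growth factor receptor that also enters the nucleus, RXR is the common partner of many nuclear receptors, Nur77 is an orphan nuclear receptor, and H3.3 is the histone variant deposited outside DNA replication. FGFR1 in RA had 2 libraries (replicates 1 and 2), and each of the other 6 groups had 1, so the only replicate spread was that between the 2 FGFR1 libraries. Each ChIP pooled cells of the same line from several culture plates. Bulk chromatin cannot tell more cells with a site bound from more binding per cell, and the peak lists hold no marker gene levels by which the cell state could be checked.

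Closely spaced divergent genes are a standing feature of mammalian genomes. Such bidirectional promoters usually lie in CpG islands, seldom carry a TATA box, and often serve genes for DNA repair, mitochondria, translation and other functions that every cell needs. The stretch between the starts can hold sites for factors that act on both genes.

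The starts of a pair lay 129 bp apart at the median (quartiles 67 and 240, range 1 to 987). In 313 pairs they were at most 100 bp apart, and 82.0% of pairs were within 300 bp. Because gene models overlap, 42 pairs shared a gene with another pair (Hdlbp/Sept2 is listed under 2 sets of identifiers), and merging overlapping regions left 734 loci. A single pair, mt-Nd6/mt-Cytb, lies in the mitochondrial genome, whose genes are transcribed from shared long transcripts, and was bound in 4 lists. The median ratio of observed to expected CpG dinucleotides (CpG o/e) in the central 1 kb was 0.773 in the pairs and 0.512 at single promoters, and the median GC content was 60.1% against 54.2%. The 3 widest members were Zfyve26/Rad51b at 978 bp, Asphd1/Sez6l2 at 981 bp and Btf3l4/Txndc12 at 987 bp, bound in 2, 1 and 8 of the 8 lists. The 3 closest pairs beyond the limit were Serpina7/4930513O06Rik at 1007 bp, Gpr108/Trip10 at 1009 bp and Sgsm2/Tsr1 at 1011 bp, bound in 0, 4 and 5 lists.

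The DNA between the starts is shown for pairs bound in all lists, for pairs bound by FGFR1 alone after RA, and for a pair bound in no list. Sequences are from the RefSeq copy of GRCm38 (mm10), plus strand, 5′ to 3′, and hold no annotated exon. Capitals mark the letters of the promoter words whose frequencies are given at the end: NFY (CCAAT), SP1 and KLF (GGGCGG), E-box (CACGTG), the cAMP response element (TGACGTCA) and its core (TGACG), on either strand. The pairs bound in all 8 lists that are shown are Fam118b/Rpusd4 (chr9:35267806-35267864) and Abce1/Anapc10 (chr8:79711741-79711819). They differ in their words, the first with an E-box and the second with a cAMP response element and a CCAAT box.
Fam118b/Rpusd4: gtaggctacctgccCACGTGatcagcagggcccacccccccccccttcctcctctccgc
Abce1/Anapc10: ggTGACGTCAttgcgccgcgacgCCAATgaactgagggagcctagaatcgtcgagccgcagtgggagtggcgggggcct
Of the 59 pairs bound by FGFR1 in both RA libraries but not by FGFR1 in LIF, RXR or Nur77, 4 are shown: Tsc2/Nthl1 (chr17:24632631-24632679), Peg3/Usp29 (chr7:6730432-6730577), Hist1h2bl/Hist1h2ai (chr13:21716144-21716421) and Cramp1l/Ift140 (chr17:25015789-25016084). The first holds none of the words, and the other 3 hold 2 to 4 CCAAT boxes each.
Tsc2/Nthl1: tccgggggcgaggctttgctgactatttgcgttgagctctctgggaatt
Peg3/Usp29: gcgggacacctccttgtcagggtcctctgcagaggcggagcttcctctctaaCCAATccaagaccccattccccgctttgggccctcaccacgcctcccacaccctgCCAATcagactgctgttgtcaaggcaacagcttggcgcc
Hist1h2bl/Hist1h2ai: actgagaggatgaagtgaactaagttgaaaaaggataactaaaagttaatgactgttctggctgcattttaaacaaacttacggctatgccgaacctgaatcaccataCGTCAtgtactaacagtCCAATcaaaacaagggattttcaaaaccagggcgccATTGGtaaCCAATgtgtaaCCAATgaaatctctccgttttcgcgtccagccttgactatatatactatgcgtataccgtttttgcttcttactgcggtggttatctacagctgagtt
Cramp1l/Ift140: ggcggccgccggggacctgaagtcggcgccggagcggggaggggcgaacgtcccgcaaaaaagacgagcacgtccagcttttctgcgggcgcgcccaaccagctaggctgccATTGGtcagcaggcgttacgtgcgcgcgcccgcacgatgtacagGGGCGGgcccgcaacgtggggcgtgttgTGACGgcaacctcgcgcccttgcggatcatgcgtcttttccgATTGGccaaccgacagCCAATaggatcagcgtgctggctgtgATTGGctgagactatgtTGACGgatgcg
The unbound pair is Rnf151/Rps2 (chr17:24718064-24718115), with a CpG o/e of 0.16 and 1 CCAAT box.
Rnf151/Rps2: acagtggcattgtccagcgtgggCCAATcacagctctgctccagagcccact

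Depth differed between libraries and bears on every share below. A background was solved from fold and −log10 p in 1500 peaks per library. The background density is the lowest of these over the smallest peak width. It ranged from 1.27 fragments per kb for H3.3 to 7.10 for RXR in LIF, and the lists held 10634 to 46137 peaks. The ranking depends on that width. Before division FGFR1 replicate 2 had the highest background, 1.04 against 0.568 for RXR in LIF. Peaks at the pairs were nearly free of the alternating purine-pyrimidine tracts of at least 20 bp that 1.26 to 51.7% of all peaks in a list contained. The share with a tract was 0.122 to 3.49% at the pairs. This was not particular to pairs. Among the strongest peaks of bound promoters, 0.148 to 3.59% held a tract at pairs and 1.10 to 3.03% at single promoters.

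Divergent pairs were bound more often than single promoters in 8 of 8 libraries. In LIF, FGFR1 bound 256 of the 755 pairs, or 33.9% (exact 95% CI 30.5 to 37.4), against 12.3% of single promoters. RXR in LIF bound 468 pairs, 62.0% (58.4 to 65.5), against 32.2%. Nur77 in LIF bound 297 pairs, 39.3% (35.8 to 42.9), against 17.5%. The ratio of pairs to single promoters in LIF was 2.76 (FGFR1), 1.93 (RXR) and 2.25 (Nur77). After RA, FGFR1 bound 553 pairs in replicate 1, 73.2% (69.9 to 76.4), against 38.4% of single promoters. Replicate 2 had 675 pairs bound, 89.4% (87.0 to 91.5), against 40.8%. The mean was 81.3% ± 11.4 (SD, n = 2) for pairs and 39.6% ± 1.70 for single promoters, so the 2 libraries lay closer together at single promoters than at pairs. RXR in RA bound 249 pairs, 33% (29.6 to 36.5), against 17.0% of single promoters. Nur77 in RA bound 287 pairs, 38.0% (34.5 to 41.6), against 17.1%. H3.3 in RA was found at 167 pairs, 22.1% (19.2 to 25.3), against 11%, the lowest share of pairs among the libraries. These intervals cover counting error only, and neighbouring promoters are not independent.

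**Figure D1:**
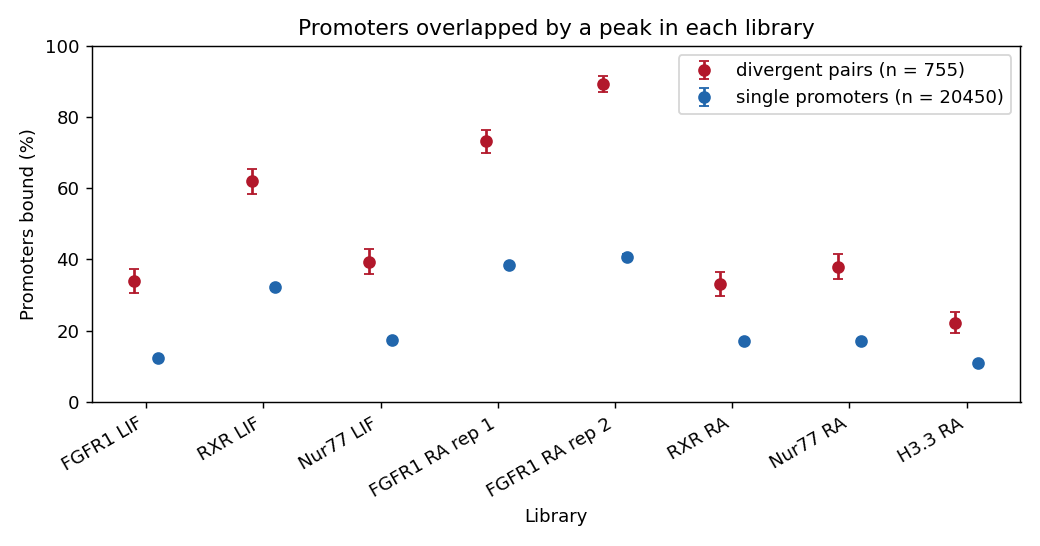
Share of divergent pairs (n = 755) and of single promoters (n = 20450) overlapped by a peak, in percent, for each of the 8 libraries. Points are shares and bars are exact 95% intervals for counting error. The pairs lie above the single promoters in each library, from 22.1% against 11% for H3.3 to 89.4% against 40.8% for FGFR1 replicate 2.

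The difference between pairs and single promoters was 41.7 percentage points ± 9.73 (SD, n = 2) for FGFR1 in RA, with 34.8 in replicate 1 and 48.6 in replicate 2. For the libraries without a replicate it ran from 11.1 points (95% interval 8.28 to 14.3) for H3.3 to 29.8 (26.2 to 33.2) for RXR in LIF. Pair regions are wider, with a median of 1130 bp against 1001 bp. When each was cut to the single width around its midpoint, the shares of pairs bound fell only slightly, to between 21.5% for H3.3 and 88.9% for FGFR1 replicate 2. Peaks at pairs were also slightly stronger in 8 of 8 libraries by the median −log10 p of the strongest peak. That median was 31.0 against 25.1 at single promoters in FGFR1 replicate 2, and 10.5 in both in FGFR1 from LIF, where the fold was slightly lower at the pairs (6.88 against 6.91). The strongest peak was taken from more peaks at pairs. In 8 of 8 libraries bound pairs held 2 or more peaks more often than bound single promoters. The shares ran from 4.19% against 3.38% for H3.3 to 39.5% against 25.3% for RXR in LIF. The part of this in the peak strength was not tested.

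CpG content moved with this difference. A CpG o/e of at least 0.75 was found at 435 pairs (57.6%) and at 5189 single promoters (25.4%), and a value under 0.4 at 35 pairs (4.64%) and 8712 single promoters (42.6%). Among promoters of at least 0.75, RXR in LIF bound 70.3% of pairs and 68.3% of single promoters, a difference of 2.05 points (95% interval -2.58 to 6.34). H3.3 was found at 27.4% and 26.8% of them, 0.53 points apart (-3.63 to 5.06). RXR in RA bound 42.5% and 39.5%, 3.06 points apart (-1.69 to 7.93). In these 3 libraries the intervals within the CpG-rich class included 0. FGFR1 kept a wider gap in that class, with 40.0% against 29.6% in LIF, a difference of 10.4 points (5.73 to 15.2). In RA its gap was 4.44 points (0.42 to 7.94) in replicate 1 and 16.9 (14.4 to 18.7) in replicate 2. Nur77 also kept a gap, of 7.15 points (2.36 to 12) in LIF and 8.11 (3.31 to 13.0) in RA. At a CpG o/e from 0.4 to 0.75 the pairs were again higher in 8 of 8 libraries, from 2.04 points (-2.50 to 7.30) for RXR in RA to 29.1 (24.8 to 32.4) for FGFR1 replicate 2. Of the 35 CpG-poor pairs 2.86 to 14.3% were bound, depending on the library, against 0.562 to 4.73% of the CpG-poor single promoters. The pairs were higher in 8 of 8 libraries here too. The interval left out 0 only for Nur77 in LIF (7.07 points, 1.45 to 20.9) and FGFR1 replicate 1 in RA (9.56, 1.52 to 24.7). The part of CpG content in the difference was not tested beyond these classes.

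**Figure D2:**
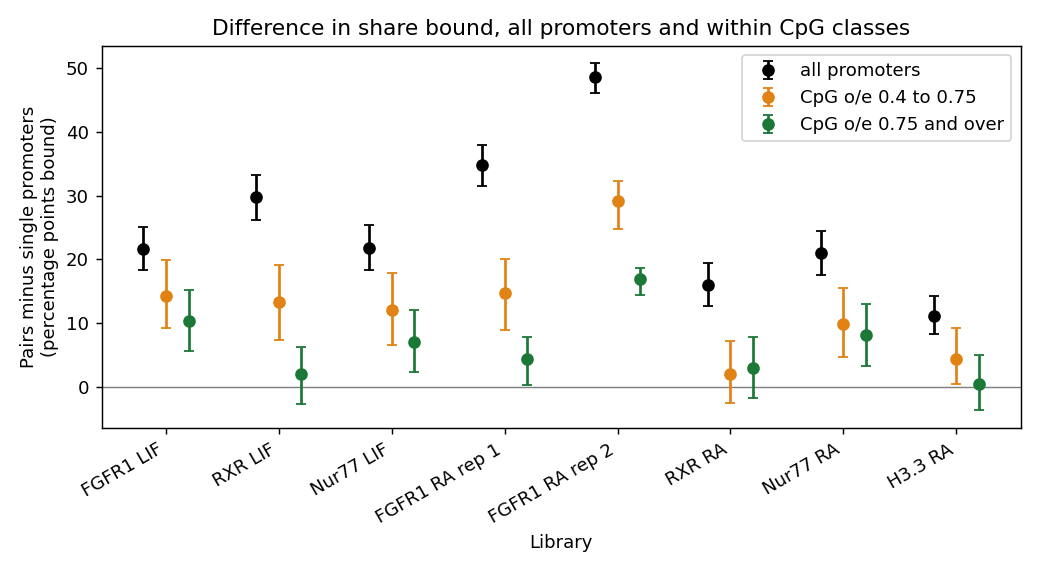
Share of pairs bound minus share of single promoters bound, in percentage points, for each library, over all promoters (black) and within promoters with a CpG o/e of 0.4 to 0.75 (orange) or of at least 0.75 (green). Bars are 95% Newcombe intervals. For RXR in LIF the difference is 29.8 points over all promoters and 2.05 in the most CpG-rich class, and for H3.3 it is 11.1 and 0.53.

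Single promoters of 2 kinds resembled the pairs in layout. At 772 of them a non-coding gene started within 1000 bp on the other strand, pointing away, and at 883 the head of a coding gene on the other strand overlapped. Shares bound at those with a non-coding partner lay between other single promoters and pairs. FGFR1 in LIF bound 23.1% of them, against 33.9% of pairs, and FGFR1 in RA bound 61.9% in replicate 1 and 69.9% in replicate 2. With an overlapping head, FGFR1 bound 28.2% in LIF and 64.3% and 79.8% in the RA libraries. The remaining 18798 single promoters were bound at 11.1%, 36.2% and 37.8%. Within the CpG-rich class, promoters with a non-coding partner were bound by FGFR1 at 31.4% in LIF and 83.7% in replicate 2, closer to the 29.6% and 79.2% of all CpG-rich single promoters than to the 40.0% and 96.1% of pairs.

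The RA comparison asked which pairs gained or lost binding on neuronal differentiation. FGFR1 was found at 33.9% of pairs in LIF and at 73.2% and 89.4% in the RA libraries, a mean rise of 47.4 points ± 11.4 (SD, n = 2). Both rises start from the same LIF library, so the SD is the spread of the RA libraries alone. At single promoters the rise was 27.3 points ± 1.70, from 12.3% to a mean of 39.6%. RXR fell by 29.0 points at pairs, from 62.0% to 33%, and by 15.2 at single promoters, from 32.2% to 17.0%. Pairs started from higher shares, and the larger changes in points were not larger in proportion. The ratio of pairs to single promoters was 2.76 in LIF and a mean of 2.05 in RA for FGFR1, and 1.93 and 1.94 for RXR. Nur77 changed by -1.32 points at pairs, from 39.3% to 38.0%. RXR and Nur77 have no replicate check in either state, and FGFR1 has none in LIF. With only peaks of a −log10 p of at least 10, FGFR1 was found at 18.8% of pairs in LIF and at 58.9% and 86.9% in RA, and RXR at 40.3% and 15.8%. Nur77 was then at 19.1% in LIF and 22.3% in RA, the opposite direction to the whole lists. With only as many of the strongest peaks as the FGFR1 list from LIF (11378 per list), FGFR1 was found at 33.9% of pairs in LIF but 30.6% in RA replicate 1 and 85.6% in replicate 2, so the replicates no longer moved the same way. RXR was then found at 26.2% of pairs in LIF and 21.6% in RA. By the inferred background density the RXR library from LIF was also the deepest and that from RA among the shallowest (1.87 fragments per kb). The part of depth in the change was not tested.

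Most pairs with FGFR1 in LIF kept it. Of the 256, 239 (93.4%) were bound in RA replicate 1 and 253 (98.8%) in replicate 2, and 236 in both. No pair bound in LIF was absent from both. Single promoters with FGFR1 in LIF kept it at 92.7% in replicate 1 and 92.8% in replicate 2, so retention in replicate 1 was alike. Among the 499 pairs without FGFR1 in LIF, 297 (59.5%) were bound in both RA libraries, against 21.8% of the single promoters without FGFR1 in LIF. RXR stayed at 216 of its 468 pairs (46.2%, against 42.5% of its single promoters) and appeared at 33 others. The 252 pairs that lost RXR had weaker RXR peaks in LIF than the 216 that kept it, with a median −log10 p of 10.4 against 12. FGFR1 was present in both RA libraries at 198 (78.6%) of the pairs that lost RXR and at 200 (92.6%) of those that kept it. Nur77 stayed at 176 of 297 pairs (59.3%, against 49.3% of its single promoters), left 121 and appeared at 111. With 1 Nur77 library in each state, gains and losses cannot be told from differences between libraries, and the FGFR1 replicates of the same condition differed at 162 pairs. All 3 factors shared 151 pairs in LIF and 152 in RA (both FGFR1 libraries), and 80 pairs were in both sets.

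The FGFR1 replicates were compared at the pairs. Replicate 2 held 533 (96.4%) of the 553 pairs of replicate 1, and replicate 1 held 533 (79.0%) of the 675 pairs of replicate 2. At single promoters the corresponding shares were 77.6% and 73.0%. Of the pairs bound in exactly 1 of the 2 libraries, 20 were in replicate 1 and 142 in replicate 2. Replicate 2 had 14082 peaks against 46137 in replicate 1, and 5.82% of its peaks lay at the pairs against 1.65%.

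A pair was bound in a median of 4 of the 8 lists, against 1 for single promoters. Only 51 pairs (6.75%) were in no list and 47 (6.23%) were in all 8, whereas 46.7% of single promoters were in none and 1.80% in all. The commonest combinations were FGFR1 replicate 2 alone (68 pairs), the 2 FGFR1 libraries from RA alone (56), those 2 with RXR from LIF (49), all 8 lists (47) and every list except H3.3 (33), beside the pairs in no list. The pairs in all lists had closer starts, with a median distance of 80 bp against 167 bp for the pairs in none. Their CpG o/e was 0.848 at the median against 0.369. Of the 51 unbound pairs 28 had a CpG o/e under 0.4, and none of the 47 had. Of the 20 pairs on the X chromosome, 8 were in no list, but single promoters on that chromosome are not given here for comparison.

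**Figure D3:**
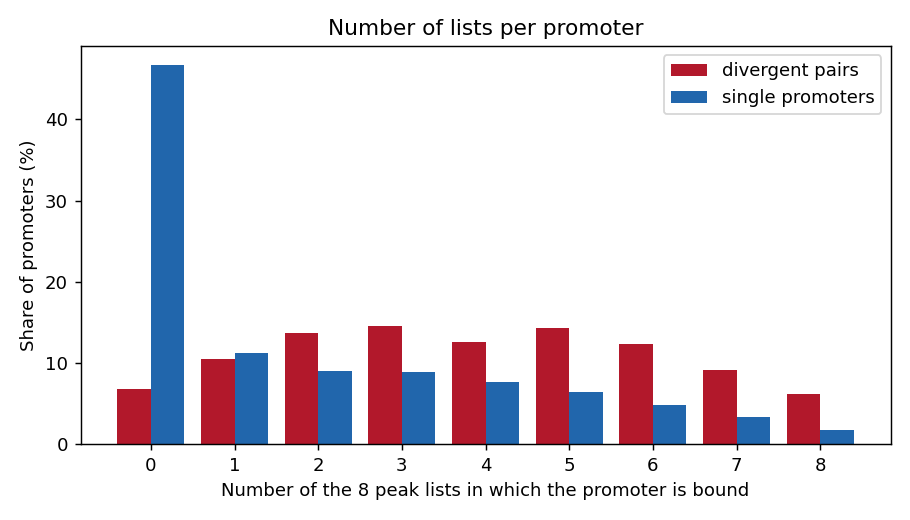
Share of divergent pairs and of single promoters, in percent, by the number of the 8 peak lists in which they were bound. Single promoters peak at 0 lists with 46.7%, while the pairs spread over all numbers, from 6.75% in no list to 6.23% in all 8.

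The 6 pairs with the strongest peaks across all lists are described in turn. Sdha, a subunit of succinate dehydrogenase in the respiratory chain, pairs with Ccdc127 (starts at chr13:74350280-74350309, 29 bp apart). Its strongest FGFR1 peak had a −log10 p of 19.98 in LIF and of 26.7 and 68.2 in the RA replicates. RXR had 20.5 in LIF and 14.6 in RA, Nur77 had 14.7 and 21.2, and H3.3 had 14.5. Values from separate lists depend on depth, and only their rank within a list is comparable. Eif2b1, a subunit of the exchange factor for the translation factor eIF2, and Gtf2h3, a subunit of the transcription factor TFIIH, start 9 bp apart (chr5:124579131-124579140). There FGFR1 had 17.4 in LIF and 39.8 and 77.2 in RA, RXR had 9.12 in LIF and 20.6 in RA, Nur77 had 11.3 in LIF and 25.1 in RA, and H3.3 had 15.9. RXR at this pair had the higher value in the shallower RA library. Abce1, which recycles ribosomes, and Anapc10, a subunit of the anaphase-promoting complex, had the strongest FGFR1 peak of the 6 in LIF (28.4) and 39.8 and 48.3 in RA. RXR had 13.5 and 19.7, Nur77 had 15.9 and 13.1, and H3.3 had 9.93. Zdhhc3, a palmitoyltransferase, pairs with Exosc7, a subunit of the RNA exosome, 10 bp away (chr9:123113205-123113215). FGFR1 had 26.6 in LIF and 32.9 and 51.8 in RA, and the other 5 lists had 10.5 to 15.8. Fam118b/Rpusd4, which includes a pseudouridine synthase of mitochondria, and 0610012G03Rik/Ncbp2 (chr16:31948494-31948513), which includes a subunit of the mRNA cap-binding complex, had FGFR1 values in LIF of 16.2 and 12. In RA these were 32.9 and 56.2 at the former and 30.2 and 48.1 at the latter. Their H3.3 values were 16.1 and 17.1.

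FGFR1 was the only factor found at 59 pairs, in both RA libraries and with no peak of FGFR1 in LIF or of RXR or Nur77 in either state. At single promoters this held for 682, or 3.33%, against 7.81% of pairs. By the lower of the 2 −log10 p values the first was Tsc2/Nthl1 (starts at chr17:24632630-24632680), which joins the gene of tuberin, a restraint on mTORC1, to that of a DNA glycosylase of base excision repair. Its −log10 p was 21.9 in replicate 1 and 34.2 in replicate 2. Peg3/Usp29 (chr7:6730431-6730578), a pair of imprinted genes expressed from the paternal copy, had 21.2 and 56.5. Hist1h2bl/Hist1h2ai (chr13:21716143-21716422), a pair of core histone genes, had 20.1 and 22.9. Cramp1l/Ift140 (chr17:25015788-25016085), which includes a gene of intraflagellar transport, had 18.8 and 21.1.

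Binding in LIF alone was rare. Only 3 pairs (0.397%) were in a LIF list and in no RA list, against 1.98% of single promoters. Each rested on a single list. Slc27a5/Trim28 (chr7:12998192-12999114), with the corepressor of KRAB zinc finger proteins, had a Nur77 peak with a −log10 p of 9.0. Duox2/Duoxa2 (chr2:122298449-122298900), the oxidase of thyroid hormone synthesis and its maturation factor, had a Nur77 peak of 8.99. Eme2/Mrps34 (chr17:24895087-24895116), with a protein of the mitochondrial ribosome, had an RXR peak of 7.57.

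Unbound pairs included Snx1/Ciao2a (starts at chr9:66126587-66126611, 24 bp apart), with a sorting nexin of the retromer and a gene of iron-sulfur cluster assembly, at a CpG o/e of 0.61. Best1/Rab3il1 (chr19:10001633-10001669), with the chloride channel of the retinal pigment epithelium, and Rnf151/Rps2 were CpG-poor, at 0.10 and 0.16. Nek8/Tlcd1 (chr11:78176675-78176711), with a kinase of the cilium, was unbound at 0.78. These are the 4 unbound pairs with the closest starts. Unbound means without a called peak at these depths.

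Of 18 pairs that textbooks cite as divergent, 9 met the rule. Of the rest, 8 have starts that overlap in this annotation, and Col4a5/Col4a6 lies 1309 bp apart. Mcm4/Prkdc, with a subunit of the replicative helicase and the catalytic subunit of DNA-dependent protein kinase (starts at chr16:15637400-15637866), was bound in all 8 lists. FGFR1 had a −log10 p of 9.55 in LIF and of 33.3 and 62.8 in RA, RXR had 12.4 and 11.8, Nur77 had 11.3 and 12, and H3.3 had 7.71. Atm/Npat, with the kinase that senses DNA breaks and the activator of histone genes (chr9:53536740-53537047), was bound in every list but RXR in RA, with FGFR1 at 14.6 in LIF and 17.8 and 49.3 in RA and H3.3 at 17.1. Psmb1/Tbp (chr17:15499751-15499888), Rad51c/Tex14 (chr11:87404954-87405065) and Gart/Son (chr16:91646952-91647506) were each bound in 5 lists, and all of them in both FGFR1 libraries from RA. Brca1/Nbr1 (chr11:101551955-101552149) was bound in 3 lists, RXR and Nur77 in LIF (8.95 and 9.87) and FGFR1 replicate 2 (25.5). Wrap53/Trp53 (chr11:69580255-69580359), with the gene of the tumor suppressor p53, was bound by FGFR1 alone, at 9.62 in LIF and at 9.70 and 16.8 in RA. Col4a4/Col4a3 (chr1:82586849-82586921), genes of basement membrane collagen, had RXR in LIF (8.49), FGFR1 replicate 1 (8.01) and Nur77 in RA (10.9). Mrps12/Sars2 (chr7:28741820-28741992), both of mitochondrial translation, had only FGFR1 replicate 2 (15.5). FGFR1 replicate 2 was thus present at 8 of these 9 pairs, against 89.4% of all pairs.

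Pairs were also grouped by the function of either gene. Respiratory chain genes were in 20 pairs, of which FGFR1 replicate 2 bound 20 and replicate 1 bound 19 (95%). Over all pairs these shares were 89.4% and 73.2%, and over the single promoters of the list 81.5% and 58.0%. Replicate 2 also bound all 24 pairs with general transcription factors or RNA polymerase subunits and all 21 with cell cycle genes. A respiratory chain pair was in a median of 4.5 lists, against 3 for the 81 single promoters of that list. Sdha/Ccdc127 was in all 8 lists and Ndufa1/Rnf113a1 in FGFR1 replicate 2 only. Splicing genes were in 18 pairs, in a median of 5.5 lists against 3 for 68 single promoters, from Ccdc157/Sf3a1 in all 8 to Gla/Hnrnph2 in none. DNA replication and repair genes were in 45 pairs, in a median of 5 lists against 4 for 110 single promoters. FGFR1 in LIF bound 21 of those 45 (46.7%) against 25 of the 110 (22.7%), where over all pairs and all single promoters it bound 33.9% and 12.3%. The proteasome was in 8 pairs, with a median of 4.5 lists against 3, from Ftsj3/Psmc5 in 7 to Psmd10/Atg4a in none. The 18 pairs with mitochondrial ribosomal genes did not stand above their 60 single promoters in number of lists, with medians of 4 in both. Mrps18b/Ppp1r10 was in all 8, with a −log10 p of 122.3 in FGFR1 replicate 2, and Eme2/Mrps34 was in 1. Cytosolic ribosomal genes were in 9 pairs with a median of 3, as at their 71 single promoters. Rpl9/Lias was in 7 lists.

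Chaperone genes were in 11 pairs with a median of 5 lists against 4, led by Cct6b/Zfp830 in 7, while Hspa1a/Hspa1l was in none. General transcription factors and RNA polymerase subunits were in 24 pairs with a median of 3.5 against 3, from Eif2b1/Gtf2h3 in 8 to Polr1c/Yipf3 in 1. Cell cycle genes were in 21 pairs with a median of 3 lists against 4, though the means were 3.76 and 3.74. The tRNA synthetases (5 pairs) had a median of 3 against 4, and vesicle traffic genes (17 pairs) of 4 against 4. Orc3/Rars2 was in all 8 lists, Exoc2/Gm5447 in 7 and Prr11/Ska2 in 1. Zinc finger genes named Zfp were in 18 pairs with a median of 1.5 against 2, with Grik5/Zfp574 unbound. Families that are mostly tissue-restricted, such as keratins, collagens, cytochromes P450 and solute carriers, were in 20 pairs with a median of 3 lists, against 0 for their 2264 single promoters, of which 1964 were in none. The family names do not follow expression, and the pair in most lists, Slc25a32/Dcaf13 (7), holds a mitochondrial folate carrier, while Pcdh12/Rnf14 was in none. Only 3 pairs held a developmental regulator, among them Foxa3/Sympk in 3 lists and Sox6/1110004F10Rik in 1.

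Replication-dependent histone genes, which supply the core histones of newly made chromatin, were in 14 pairs with a median of 1 list, as at their 69 single promoters. FGFR1 replicate 2 bound 11 of the 14, replicate 1 bound 3, and FGFR1 in LIF and RXR and Nur77 in either state bound 1 each. Over all pairs, by comparison, FGFR1 was at 89.4% and 73.2% in RA and 33.9% in LIF. H3.3 was at none of the 14, against 22.1% of all pairs. FGFR1 in LIF bound 23 of the 69 single promoters of the list (33.3%), a difference from its pairs that was not tested. Hist1h2ba/Hist1h2aa was in 5 lists and Hist1h2ap/Hist1h2br in none. Histone genes have near-identical copies, and reads that fit several copies were dropped before peak calling, so fewer reads and less binding cannot be told apart here.

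Spacing was examined with windows of equal width, 500 bp to either side of each gene start. At starts up to 100 bp from the partner (619 genes), FGFR1 was found at 39.3% in LIF and at 77.1% and 92.2% in RA. From over 300 to 500 bp (131 genes) the shares were 31.3%, 71.8% and 93.1%. From over 500 to 1000 bp (138 genes) they were 18.1%, 42.8% and 55.8%, and from over 1000 to 2000 bp (200 genes) 7.50%, 26.5% and 36.5%. RXR in LIF gave 66.2%, 58.8%, 31.9% and 22.0% over the same ranges. Nur77 in LIF gave 46.2%, 32.8%, 19.6% and 7.0%, and H3.3 gave 27.6%, 19.1%, 11.6% and 6.0%. With these windows the drop beyond 500 bp occurred in 8 of 8 libraries, but from that distance on a window no longer takes in the partner start. With whole pair regions, which widen with distance, FGFR1 replicate 2 went from 95.5% (over 300 to 500 bp) to 72.9% (over 500 to 1000 bp). FGFR1 in LIF went from 31.8% to 27.1% and H3.3 from 21.2% to 18.6%, while RXR in RA alone rose, from 21.2% to 24.3%. CpG content, taken around the pair midpoint and not at each start, also dropped beyond 500 bp. The share of pairs at or above 0.75 was 65.2% from over 300 to 500 bp and 24.3% from over 500 to 1000 bp. The part of CpG content and of the window was not tested. The genes of close pairs share peaks, since their windows overlap.

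**Figure D4:**
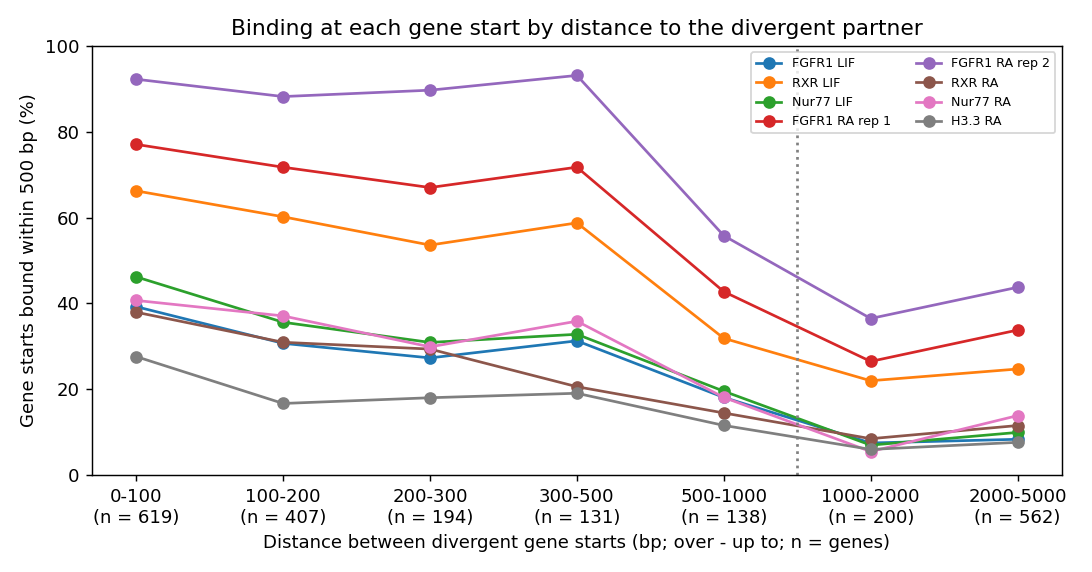
Share of gene starts with a peak within 500 bp, in percent, by the distance between the 2 divergent starts, one line per library. The dotted line marks the 1000 bp limit of the pairs. FGFR1 replicate 2 stays between 88.2% and 93.1% up to 500 bp, then falls to 55.8% and, beyond the limit, 36.5%.

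Summits were more often on the gene side of a start than between the starts. The strongest summit lay between the starts in 10.8% (FGFR1 replicate 2) to 24.4% (Nur77 in RA) of bound pairs. In FGFR1 replicate 2, 302 summits lay beyond the minus-strand start and 300 beyond the plus-strand start, and for H3.3 71 and 62. The other lists had more on the plus side, most unevenly FGFR1 replicate 1 with 187 and 233. The difference between sides was not tested. The gap is short in most pairs, so pairs over 200 bp apart were taken separately. FGFR1 replicate 2 then had 32 of 204 summits (15.7%) in the gap, which made up 27.2% of the region length. In the other 7 libraries the share in the gap was 24.6 to 33.3%, close to the 26.8 to 27.8% of length. At single promoters the strongest summit was upstream of the start in 25.9 to 30.5% of bound promoters, and its median position was 56 bp downstream in FGFR1 replicate 2 and 74 to 118 bp in the others. A single peak covered both starts in 53.5% of the pairs bound in FGFR1 replicate 2, where peaks at pairs had a median width of 412 bp, and in 8.42 to 19.1% elsewhere. Separate peaks with summits beyond both starts were found at 130 pairs in FGFR1 replicate 2, 93 in replicate 1, 90 for RXR in LIF and 2 to 18 in the other lists.

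H3.3 in RA was found mostly at pairs with FGFR1, but so were RXR and Nur77. Of the pairs with H3.3, FGFR1 replicates 1 and 2 held 97.0% and 96.4%. They held 94.4% and 96.8% of those with RXR in RA, and 92.3% and 96.2% of those with Nur77 in RA. None of the 60 pairs without FGFR1 in RA had an H3.3 peak, where a limit of 3 counts allows a share of up to 5.0% and the exact 95% upper limit is 5.96%. These 60 include the 51 pairs that were in no list at all. Of the 162 pairs with FGFR1 in 1 library 11 had H3.3 (6.79%, exact 95% CI 3.44 to 11.8), and of the 533 with FGFR1 in both 156 did (29.3%, 25.4 to 33.3). Single promoters gave 0.802%, 10.6% and 28.5%, each within the interval of the pairs at the same FGFR1 status. The FGFR1 and H3.3 libraries come from separate ChIPs, and no input library was named in the peak calls.

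Promoter words were counted on both strands in 300 bp, centred on the midpoint of a pair or from 250 bp before to 50 bp after a single start. A match is a run of letters and not a shown binding site. The ETS word of GABP (CCGGAAGT) was in 12.8% of pairs and 4.09% of single promoters, the YY1 word (AAGATGGCG) in 5.70% and 1.41%, the NRF1 word (GCATGCGC) in 6.49% and 3.49%, and the cAMP response element in 4.37% and 2.28%. Its core TGACG, which the full element contains, was in 42.6% and 21.7%. GGGCGG was in 67.9% and 41.1%, CCAAT in 45.2% and 38.7% and CACGTG in 10.7% and 7.49%. Rarer in pairs were TATAAA, with 4.37% against 13.3%, and the nuclear receptor core AGGTCA, with 9.54% against 15.2%. The Nur77 word AAAGGTCA, which contains it, was in 8 pairs (1.06%) and 1.23% of single promoters. In CpG-rich promoters the ETS word was in 13.3% of pairs and 7.44% of single promoters and the YY1 word in 6.44% and 2.95%. The NRF1 word was in 6.90% and 6.71% of them and GGGCGG in 73.1% and 74.8%. The words rarer in pairs differed less in this class, with TATAAA in 4.14% and 5.95% and AGGTCA in 7.82% and 9.21%. AAAGGTCA was in 1.15% of CpG-rich pairs and 0.771% of CpG-rich single promoters.

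Pairs with a word were then compared with pairs without it in each library. Over the 11 words and 8 libraries, 34 of 88 intervals for the difference left out 0, uncorrected for their number, with 24 higher and 10 lower in pairs with the word. The NRF1 word had the widest difference for FGFR1 in LIF, which bound 63.3% of the 49 pairs with it and 31.9% of the others, a difference of 31.4 points (95% interval 16.96 to 43.9). Within the CpG-rich pairs the shares were 73.3% of 30 and 37.5%, a difference of 35.8 points (17.4 to 49.1). NRF1 is an activator of genes for mitochondria and growth that binds unmethylated CpG-rich sites. The difference had the same direction in 8 of 8 libraries, and in the FGFR1 libraries from RA, where most pairs were bound, it was 83.7% against 72.5% and 95.9% against 89.0%. The cAMP response element went with Nur77 in LIF (63.6% of 33 pairs against 38.2%) and FGFR1 in LIF (51.5% against 33.1%), but not with RXR in LIF (57.6% against 62.2%). Within CpG-rich pairs, 24 of which held it, the difference was 23.1 points (2.58 to 39.2) for Nur77 in LIF. For FGFR1 in LIF it was 19.4 points there, with an interval that included 0 (-0.68 to 37.2). In the FGFR1 libraries from RA the CpG-rich shares were 79.2% against 82.5% and 95.8% against 96.1%. FGFR1 replicate 2 bound all 43 pairs with the YY1 word and 88.8% of those without it, and within CpG-rich pairs 28 of 28 and 95.8%, where the interval of the difference included 0 (-7.99 to 6.59).

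CCAAT, the word of the factor NFY, went the other way. Pairs with it were bound less often in 7 of 8 libraries, by Nur77 in RA at 30.5% against 44.2% and by FGFR1 in LIF at 29.0% against 37.9%, the exception being FGFR1 replicate 2 (90.3% against 88.6%). TATAAA went with fewer bound pairs in 8 of 8 libraries, most of all RXR in LIF, at 24.2% of 33 pairs against 63.7%. Of those 33 pairs 10 were histone pairs, so the limit on mapping given for histones applies to them. The nuclear receptor core AGGTCA made little difference for RXR in LIF (58.3% against 62.4%) or RXR in RA (29.2% against 33.4%), with the difference of Nur77 in LIF (47.2% against 38.5%) also within an interval that included 0.

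**Figure D5:**
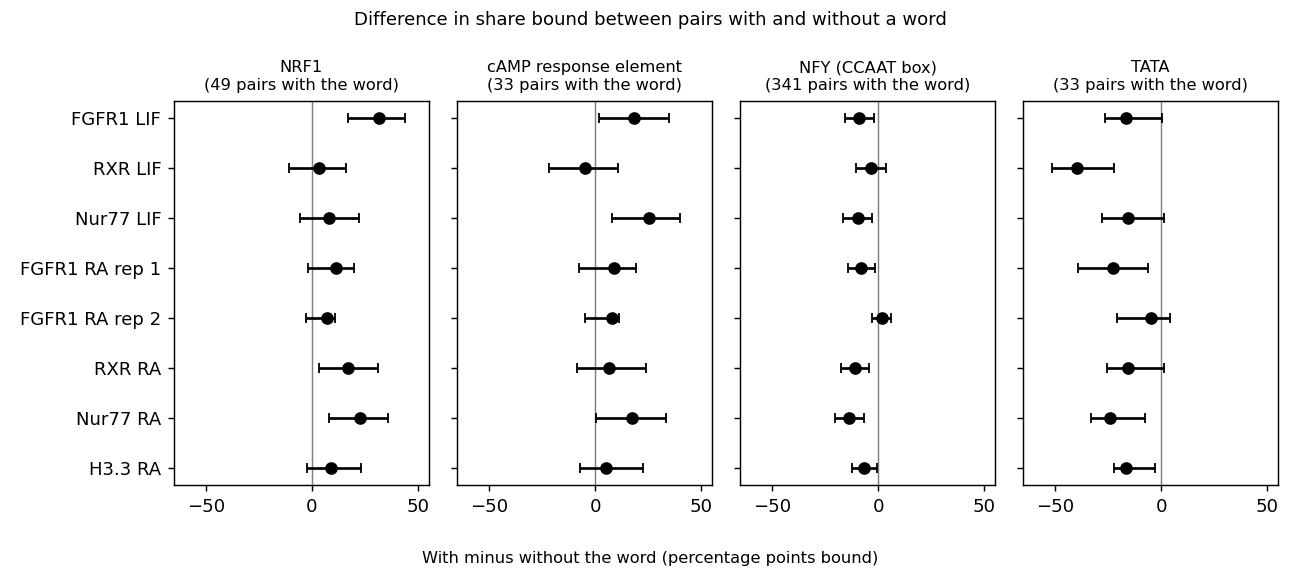
Share of pairs bound with a word minus share bound without it, in percentage points, for 4 words and 8 libraries. Points are differences, bars are 95% Newcombe intervals, and the gray line is 0. The NRF1 word stands at 31.4 points for FGFR1 in LIF, and TATA lies below 0 in 8 of 8 libraries, with its widest difference for RXR in LIF.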

How the data were processed

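Per the labels and the study's methods, the authors aligned reads to mm10 with Bowtie 1.0, keeping reads with 1 place in the genome, and called peaks per library with MACS2, naming no control. The deposited fold is a ratio of summit pileup to local background, and the −log10 p and −log10 q, deposited beside it, are those of the summit. The deposited score restates −log10 p and was not needed, and the summit offset gave positions. Pairs and single promoters came from GENCODE M21, whose gene starts are the outermost annotated ones. Of the genes outside pairs, 12 whose regions overlapped a pair region were left out. Shares carry exact Clopper-Pearson 95% intervals and differences Newcombe intervals, for counting error only. No p-value was computed, since 6 of 7 groups had 1 library. Depth was inferred by solving fold and −log10 p for a whole fragment number and a background in 1500 peaks per library, each solved within 0.002. The code was tested on simulated data. Members and gene lists were chosen with earlier results of these data known.

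Named pairs are the 6 strongest in all 8 lists by mean rank of −log10 p, the 4 strongest bound by FGFR1 alone in RA, the pairs bound in LIF only, the 4 closest unbound, the textbook pairs, and the pair in most and in fewest lists of each function. Stretches of 40 to 300 bases between starts were printed. Python 3.11.15 with scipy was used. Alternatives are given in the closing section.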

Additional observations from a re-analysis of the deposited data

Results flagged for a closer look

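The share of pairs bound moved in opposite directions for different factors between LIF and RA. FGFR1 rose in both RA libraries, by 39.3 and 55.5 percentage points, while RXR fell by 29.0 and Nur77 stood at -1.32. The FGFR1 mean exceeded that of RXR by 76.4 points and that of Nur77 by 48.7 points. The differences were not tested, since each state had 1 library of RXR and of Nur77, and FGFR1 had 1 in LIF. The Nur77 change was smaller than its counting error. With equal numbers of the strongest peaks per list, FGFR1 replicate 1 lay below the LIF library (30.6% against 33.9% of pairs), though the FGFR1 mean still stood at 24.2 points against -4.64 for RXR. With a −log10 p of at least 10 both FGFR1 libraries again lay above LIF (mean 54.1 points), RXR fell by 24.5, and Nur77 stood at 3.18, on the same side as FGFR1.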

How the results depend on the processing

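Of 104 alternative values for 10 results, 85 stayed within the replicate SD or the 95% counting interval, and 19 moved outside it. Some of the 85 could not have moved. Leaving out 1 of 2 replicates always stays within their SD. The setting of 11378 peaks left the FGFR1 list from LIF and the H3.3 list (10634 peaks) whole. A −log10 q of at least 2 returned the same value for all 10 results. The sign changed only for RA minus LIF of Nur77, whose interval included 0 (-1.32 against 3.18 with a −log10 p of at least 10 and 0.46 with CpG o/e of at least 0.75). Pairs minus single promoters, in percentage points, moved most with CpG o/e of at least 0.75, to 10.4 (FGFR1 in LIF), 2.05 (RXR in LIF), 7.15 (Nur77 in LIF), 3.06 (RXR in RA), 8.11 (Nur77 in RA), 0.53 (H3.3) and 10.7 (FGFR1 in RA). With a −log10 p of at least 10 it was 11.8 (FGFR1 in LIF), 21.7 (RXR in LIF), 10.96 (Nur77 in LIF), 8.22 (RXR in RA), 13.3 (Nur77 in RA) and 6.77 (H3.3). With 11378 of the strongest peaks per list it was 14.7 (RXR in LIF), 10.4 (Nur77 in LIF), 11.3 (RXR in RA) and 8.91 (Nur77 in RA). The FGFR1 mean in RA was then 32.8, within its SD, but its replicates lay far apart. Replicate 1 had 30.6% of pairs against 14.0% of single promoters, and replicate 2 had 85.6% against 36.6%. With those 11378 peaks RA minus LIF at pairs was 24.2 for FGFR1, with its replicates in opposite directions, and -4.64 for RXR. Fewer peaks enter under the last 2 settings. The cause of the movement with CpG content was not tested. Leaving out each FGFR1 library in RA gave pairs minus single promoters of 34.8 to 48.6 and RA minus LIF of 39.3 to 55.5. A −log10 q of at least 2, summits inside the region, 50% of the peak, the single width, starts up to 500 bp apart, peaks without tracts, and merged loci without chromosome M moved nothing outside its error. No paired analysis was possible because each group other than FGFR1 in RA had 1 library. Depth is inferred, and no input library was named, so unbound means not detected.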
